A study of Mus musculus with 3 samples.

Results

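The 46 genes described here are type I interferon stimulated genes, a set of antiviral and regulatory genes named by symbol, out of 22238 genes measured in all 3 libraries of a mouse study of experimental autoimmune encephalomyelitis (EAE), an inflammatory disease of the central nervous system used as a model of multiple sclerosis. Guanylate binding proteins and the IRF and STAT factors were not counted among the 46. All 46 were found in each library. They were divided by role into IFIT proteins (4 genes), the ISG15 system (3), the OAS family with Isg20 (7), nucleic acid sensors and their regulators (7), the viperin locus with the Mx GTPases (4), membrane restriction factors (5), the PARP9 axis with nuclear factors (5), Schlafen genes with Samd9l (4) and other interferon stimulated genes (7).

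Each library was bulk RNA-Seq of 1 sorted population from female wild-type C57BL/6J mice aged 10 to 12 weeks. The mice had received MOG peptide in complete Freund's adjuvant and 250 ng of pertussis toxin after 2 and again after 24 hours, and cells were taken on days 14 to 15. Bone marrow (BM) monocytes, sorted as CD45+ CD11b+ Ly6C-high Ly6G- CD11c-, were pooled from 13 mice over 2 experiments. Spinal cord (SC) monocytes, sorted as CD45+ CD11b+ CD64+ Ly6C-high Ly6G-, and monocyte-derived antigen-presenting cells (APCs), which differed in the gate only by low or absent Ly6C, were each pooled from 18 mice over 3 experiments. Every mouse was immunized, so that no library shows the level without disease, and cells with intermediate Ly6C were not collected. The bone marrow gate did not use CD64 and the spinal cord gate did not use CD11c, and the tissues were digested or flushed differently, so that tissue, gate and preparation cannot be told apart. The APC library was also quantified on another set of transcripts. In comparisons with APCs, population and transcript set cannot be told apart.

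With 1 library per population, no test of the populations was possible, and no difference below has a replicate check. The estimated reads summed to 33280643 in BM monocytes, 27283795 in SC monocytes and 28209589 in APCs. Levels are given as TPM (a share of all transcripts corrected for gene length), rescaled to the same sum over the 22238 genes. Differences are given as the log2 fold change of reads with a 98% interval in parentheses. A gene was called higher or lower where the whole interval was past 2-fold and its level was over 3 TPM in at least 1 of the 2 libraries. Such intervals reflect the counting error of reads alone. Reads without molecular identifiers can be PCR copies of 1 molecule, so the intervals can be too narrow even for that error. A lower level in a bulk library can mean fewer cells that express a gene or less of its RNA per cell, which cannot be told apart here.

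The populations were checked against marker genes. Ly6c2, which encodes the sorted Ly6C antigen, was at 5205 TPM in BM monocytes, 3602 TPM in SC monocytes and 1067 TPM in APCs. H2-Ab1, a chain of MHC class II, was at 133 TPM in BM monocytes, 1932 TPM in SC monocytes and 5171 TPM in APCs. All 7 monocyte markers were over 3 TPM in each library, including Ccr2, the receptor for monocyte egress, at 1629, 299 and 139 TPM in the same order. One label of the APC library named bone marrow while its title and tissue label named the spinal cord. Sall1, a transcription factor of microglia, had 0 reads in BM monocytes, 300 in SC monocytes and 1415 in APCs.

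Type I interferons (interferon alpha and beta) bind the receptor IFNAR, whose kinases JAK1 and TYK2 activate the factor ISGF3. This complex, which holds STAT2 and IRF9, binds the interferon stimulated response element (ISRE) in promoters. Interferon gamma acts through another receptor and the gamma activated site (GAS), and many genes respond to both. In EAE and multiple sclerosis, interferon beta is best known for limiting disease and as a treatment.

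Most of the 46 genes were higher in SC monocytes than in BM monocytes (below, the first step). Part of the 46 were lower in APCs than in SC monocytes (the second step), and not all of these were higher in the first. Of the 46, 31 were called higher in SC monocytes than in BM monocytes, which is 67.4%, against 13.8% of all 10072 genes over the level threshold. Ifitm6 alone was called lower, against 10.7% of all genes. The median log2 fold change of the 46 was 1.77, beside -0.15 for all genes tested. Between APCs and SC monocytes, 0 members were called higher and 16 lower, which is 34.8%, against 1.93% and 1.7% of all 9734 genes. Here the median was -0.90, beside -0.04 for all genes, and 44 of the 46 values lay below 0. The exceptions were Lgals3bp and Epsti1. Of the genes called lower in APCs, Cmpk2, Ifitm3, Ifitm6, Slfn1 and Slfn5 had not been called higher in the first step. The 1 SC monocyte library enters both steps with opposite sign, so a deviation of that library alone would move them in opposite directions. The steps are therefore not independent of each other. The plot of fold changes by gene shows both steps.

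**Figure D1:**
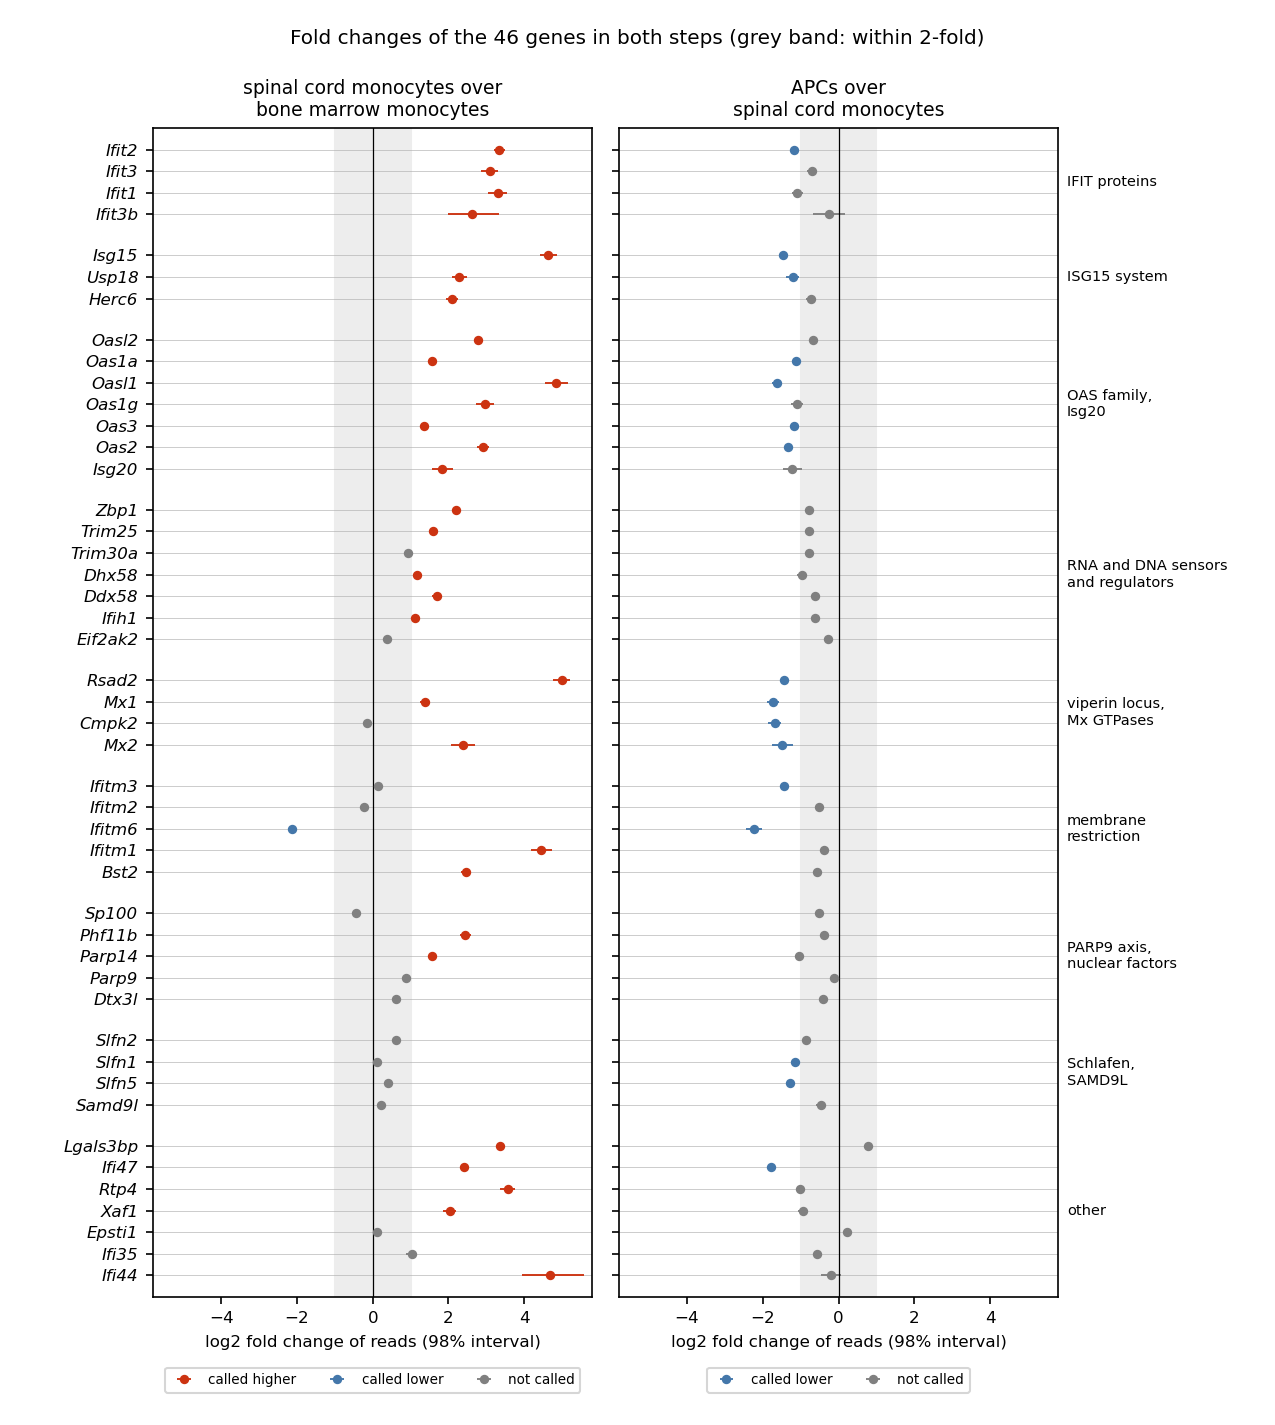
Log2 fold change of reads of each of the 46 genes with its 98% interval (horizontal axis), SC monocytes over BM monocytes on the left and APCs over SC monocytes on the right, grouped by role. Red marks the 31 genes called higher and blue the 1 and 16 called lower, grey marks genes not called, and the grey band spans changes within 2-fold.

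These calls rest on counting error, and the spread between libraries of one population was not measured. When a coefficient of variation of 0.2 between libraries was assumed, 22 of the 31 calls in SC monocytes over BM monocytes held, and 12 held at 0.4. Of the 16 genes called lower in APCs, 1 (Ifitm6) held at 0.2 and 0 at 0.4. Ifitm6 was lower in both steps, so no gene called higher in the first step held a lower call in the second. The 12 genes that held at 0.4 were Rsad2, Oasl1, Ifi44, Isg15, Ifitm1, Rtp4, Lgals3bp, Ifit2, Ifit1, Ifit3, Oas1g and Oas2.

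By level, 37 of the 46 genes were highest in SC monocytes, 7 in BM monocytes and 2 in APCs. Among the 10307 genes over 3 TPM in any library, the shares were 21.9%, 61.3% and 16.8%. The 7 were Ifitm2, Ifitm3, Ifitm6, Sp100, Slfn1, Cmpk2 and Samd9l. For Ifitm3, Slfn1 and Samd9l, the log2 fold change of reads in SC monocytes over BM monocytes was on the other side of 0, at 0.14, 0.13 and 0.22, so the order of these levels depends on the scaling. The median level of the 46 genes was 30.7 TPM in BM monocytes, 77.1 TPM in SC monocytes and 40.6 TPM in APCs.

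**Figure D2:**
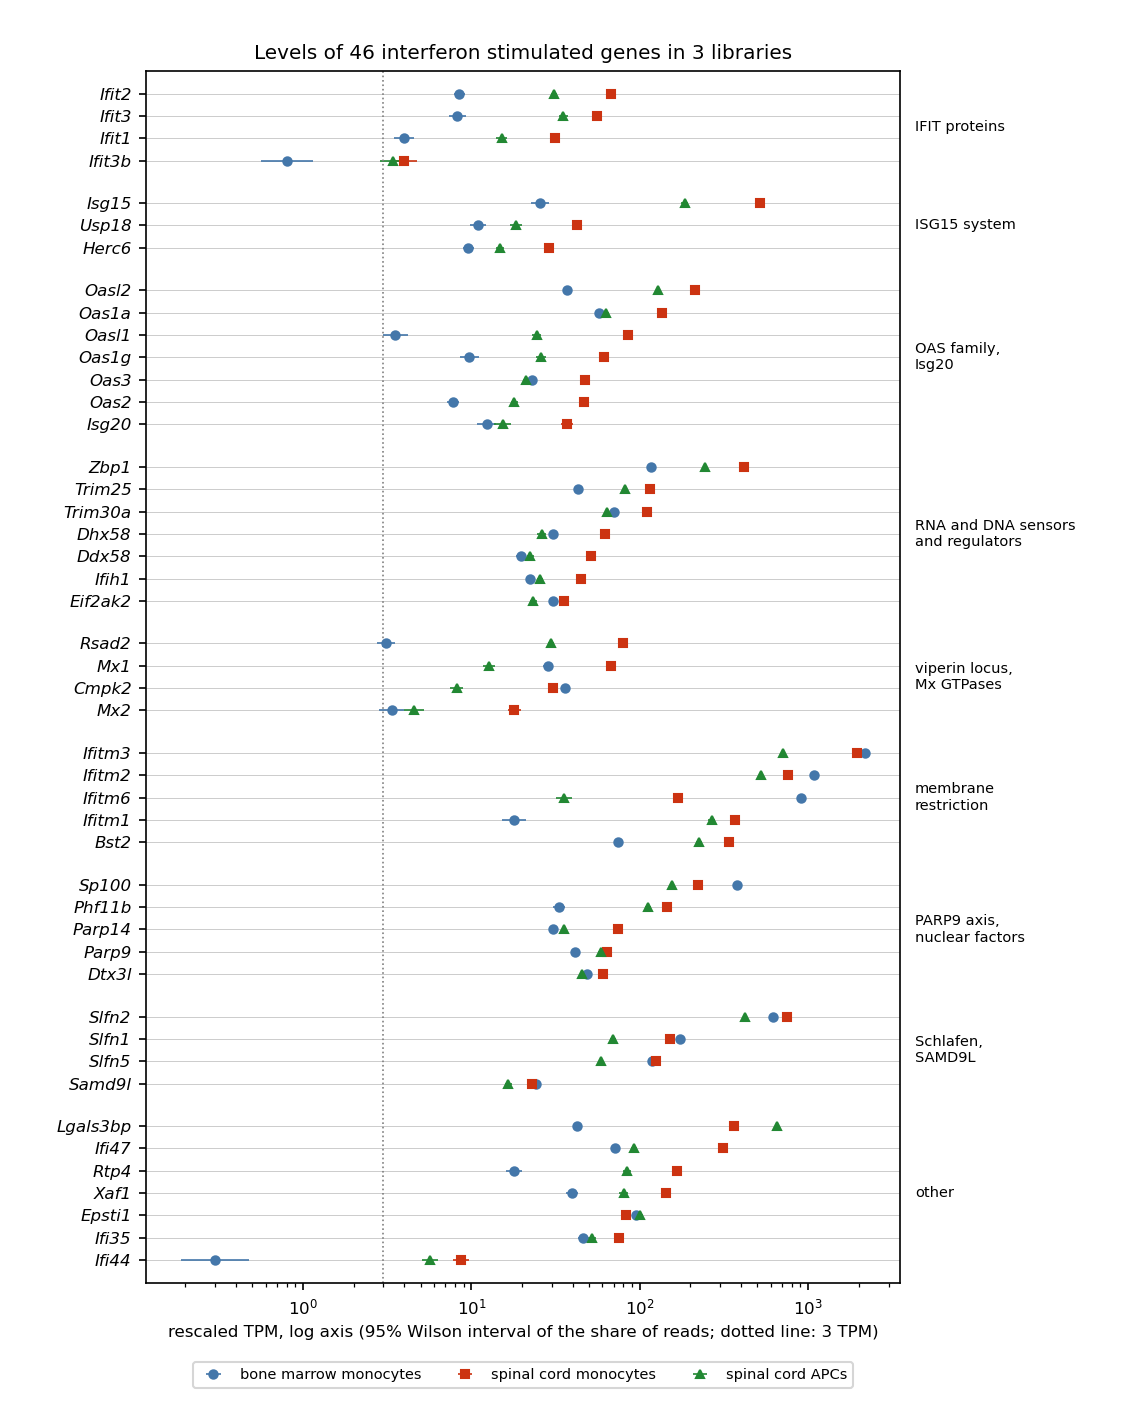
Level of each of the 46 genes in rescaled TPM on a log axis, with 95% Wilson intervals of its share of the reads, in BM monocytes (circles), SC monocytes (squares) and APCs (triangles). The squares lie furthest right for 37 genes, and the dotted line marks 3 TPM.

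Promoters of the 46 genes were searched for both elements because the genes are known as targets of ISGF3. RefSeq promoter windows of GRCm38.p6, from 250 bases before to 50 bases after a start, were at hand for 37 members, with 42 windows. The ISRE was written as GAAA, any 2 bases and GAAA, and the GAS as TTC, any 3 bases and GAA, and both strands were read. The ISRE letters were found in 18 of the 42 windows (42.9%) and in 3.44% of all 32851 windows. Counted by gene, 17 of 37 members (45.9%) had a match, beside 3.99% of all 27025 genes, and 8 members (21.6%) had more than 1 match in a window, beside 0.266%. The GAS letters were found in 8 of the 42 windows (19.0%) and in 8.30% of all windows, and in 2 of the member windows a GAS match overlapped an ISRE match. A match of letters is a description and not a binding site.

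Phf11b, Slfn5 and Trim30a also held the ISRE letters before the start, and their stretches are not printed. The stretches below hold the letters before the start in members of 5 other role groups, among them neighbouring copies. They run 5′ to 3′ on the strand of the gene, and capitals mark the ISRE letters, which read as TTTC, 2 bases and TTTC where the match is on the other strand. Isg15 held 3 overlapping matches at chr4:156200867-156200904, Ifit1 held 2 at chr19:34640777-34640821, and Rsad2 held 1 at chr12:26456555-26456580. The stretches of Ifit3 at chr19:34583365-34583424 and Ifit3b at chr19:34607761-34607820 were identical over all 60 bases and are printed once. The stretch of Oas1a lies at chr5:120907526-120907553, Oas1g at chr5:120887614-120887639, Oas3 at chr5:120777717-120777742, Bst2 at chr8:71537579-71537610 and Ifitm2 at chr7:140955990-140956015. Of these, Ifit1, Ifit3 and Ifit3b are on the plus strand and the others on the minus strand.
Isg15: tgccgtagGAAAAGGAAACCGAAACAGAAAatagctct
Ifit1: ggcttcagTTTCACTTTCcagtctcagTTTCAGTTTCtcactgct
Ifit3 and Ifit3b: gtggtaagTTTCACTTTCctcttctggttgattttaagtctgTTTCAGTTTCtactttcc
Oas1a: cttctcggGAAATGGAAACTGAAAatct
Oas1g: cttctcggGAAATGGAAACTGAAAat
Oas3: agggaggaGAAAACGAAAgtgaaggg
Bst2: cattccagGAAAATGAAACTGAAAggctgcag
Ifitm2: accaacagGAAAAGGAAAttgctaga
Rsad2: ggtccaacTTTCATTTTCagaaaaca

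The median log2 fold change of members with and without the ISRE letters was close in both steps and less so in APCs over BM monocytes, and no test of the difference was made. In SC monocytes over BM monocytes it was 1.69 for the 17 members with a match and 1.72 for the 20 without, and in APCs over SC monocytes it was -0.77 and -0.76. In APCs over BM monocytes it was 1.07 with a match and 0.62 without. Oasl1 and Ifi44, which were among the members most strongly higher in SC monocytes, had no match in these windows.

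The 4 IFIT genes, which encode proteins that bind viral RNA and block its translation, were all called higher in SC monocytes. They lie side by side on chromosome 19 (GRCm38, Ifit2 at chr19:34550694-34576419, Ifit3 at chr19:34583531-34588731, Ifit3b at chr19:34607970-34613401 and Ifit1 at chr19:34640871-34650009). Ifit2 was at 8.49 TPM in BM monocytes, 67.0 TPM in SC monocytes and 30.9 TPM in APCs. The log2 fold change was 3.34 (3.20 to 3.49) in SC monocytes over BM monocytes and -1.18 (-1.27 to -1.10) in APCs over SC monocytes. Among the 4, Ifit2 was the one called lower in APCs. Ifit1 was at 4.01, 31.3 and 15.1 TPM in BM monocytes, SC monocytes and APCs, with log2 fold changes of 3.30 (3.05 to 3.55) and -1.09 (-1.24 to -0.94). Ifit3 was at 8.26, 56.0 and 35.1 TPM in the same order, with 3.08 (2.86 to 3.31) and -0.70 (-0.83 to -0.57). Ifit3b was the least abundant member in SC monocytes, at 0.803, 4.0 and 3.41 TPM in that order. Ifit3 and Ifit3b are near-identical copies whose reads may be divided arbitrarily between them. The summed level of the 4 genes was 21.6, 158 and 84.5 TPM in BM monocytes, SC monocytes and APCs.

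The ISG15 system conjugates a ubiquitin-like protein to targets. Isg15, the modifier itself (chr4:156199424-156200818), was at 25.6 TPM in BM monocytes, 517 TPM in SC monocytes and 185 TPM in APCs. The log2 fold change was 4.63 (4.41 to 4.85) in SC monocytes over BM monocytes, and its level then was lower in APCs, at -1.46 (-1.56 to -1.37). By level it ranked 4831 among all genes in BM monocytes, 337 in SC monocytes and 695 in APCs. Usp18, the protease that removes ISG15 and dampens IFNAR signalling, was at 10.9, 42.2 and 18.3 TPM in the same order, with log2 fold changes of 2.29 (2.08 to 2.50) and -1.20 (-1.38 to -1.03). Herc6, the mouse ISG15 ligase, was at 9.58, 29.1 and 14.7 TPM, with 2.09 (1.94 to 2.24) and -0.73 (-0.85 to -0.61). All 3 genes were called higher in SC monocytes, and Isg15 and Usp18 were called lower in APCs.

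The 2′-5′ oligoadenylate synthetases make the second messenger that activates RNase L on sensing double-stranded RNA. All 6 family members among the 46 genes and Isg20, an RNA exonuclease, were called higher in SC monocytes. Oas1b and Oas1c, measured but not among the 46, were not called, at 1.34 (0.85 to 1.86) and 0.58 (0.11 to 1.06). Oasl1, a family member without synthetase activity that restrains translation of IRF7, was at 3.53 TPM in BM monocytes, 84.7 TPM in SC monocytes and 24.4 TPM in APCs. The log2 fold changes were 4.84 (4.55 to 5.14) and -1.64 (-1.76 to -1.51). Oasl2, its neighbour on chromosome 5 at a gap of 11005 bases, was the most abundant of the family in SC monocytes, with 36.8, 212 and 128 TPM in BM monocytes, SC monocytes and APCs. Its log2 fold changes were 2.78 (2.69 to 2.87) and -0.69 (-0.74 to -0.63), and it was not called lower in APCs.

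The synthetases that lie together on chromosome 5 differed in their level in the bone marrow. Oas1a was at 57.1 TPM in BM monocytes, 135 TPM in SC monocytes and 62.9 TPM in APCs, with log2 fold changes of 1.57 (1.48 to 1.66) and -1.13 (-1.22 to -1.04). Oas1g, at a gap of 8642 bases from it, was at 9.73, 61.4 and 25.9 TPM in the same order, with 2.96 (2.73 to 3.20) and -1.10 (-1.25 to -0.94). The stretches printed for this pair share their matched letters, and the pair may share reads. Oas2 was at 7.79, 46.6 and 18.02 TPM, with 2.90 (2.75 to 3.06) and -1.34 (-1.45 to -1.23). Oas3 was at 23.0, 47.1 and 21.2 TPM, with 1.36 (1.27 to 1.45) and -1.18 (-1.28 to -1.09). Its level in APCs was thus close to that in BM monocytes, with a log2 fold change of 0.17 (0.07 to 0.28) between them. Isg20 was at 12.3, 36.7 and 15.3 TPM, with 1.84 (1.57 to 2.11) and -1.22 (-1.47 to -0.97). Oas1a, Oas2, Oas3 and Oasl1 were called lower in APCs.

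Of 7 nucleic acid sensors and regulators, 5 were called higher in SC monocytes and 0 were called lower in APCs. Zbp1, which senses Z-form nucleic acid and can start necroptosis, was the most abundant of them, at 117 TPM in BM monocytes, 417 TPM in SC monocytes and 244 TPM in APCs. The log2 fold changes were 2.20 (2.13 to 2.28) and -0.77 (-0.83 to -0.71). Ddx58 (RIG-I), Ifih1 (MDA5) and Dhx58 (LGP2), the cytosolic receptors of viral RNA, had lower log2 fold changes than Zbp1 in the first step. Ddx58 was at 19.6, 51.0 and 22.4 TPM in the 3 libraries in the same order, with log2 fold changes of 1.69 (1.57 to 1.82) and -0.63 (-0.73 to -0.52). For Ifih1 these were 1.12 (1.024 to 1.22) and -0.62 (-0.72 to -0.53), and for Dhx58 1.18 (1.06 to 1.3) and -0.96 (-1.08 to -0.84). Trim25, a ubiquitin ligase that activates RIG-I, was at 42.7, 114 and 81.5 TPM, with 1.60 (1.54 to 1.66) and -0.79 (-0.84 to -0.74). Eif2ak2 (PKR), the kinase that stops translation on double-stranded RNA, was at 30.6, 35.7 and 23.3 TPM and was not called in any comparison. Trim30a, a negative regulator of inflammatory signalling, was at 70.7, 110.3 and 63.8 TPM, with 0.93 (0.87 to 0.99) and -0.77 (-0.83 to -0.71), and was not called either.

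Rsad2 encodes viperin, which converts CTP to a chain terminator of viral RNA, and was among the 3 members with the highest log2 fold changes in SC monocytes over BM monocytes, with Oasl1 and Ifi44. The intervals of the 3 overlap, and Rsad2 had the highest value from reads while Ifi44 had it from reads divided by effective length (5.04, beside 4.91 for Rsad2). It was at 3.11 TPM in BM monocytes, 79.3 TPM in SC monocytes and 29.8 TPM in APCs. The log2 fold changes were 4.99 (4.77 to 5.22) and -1.44 (-1.53 to -1.36). Cmpk2, the mitochondrial nucleotide kinase that supplies CTP from the neighbouring locus, lies on the opposite strand at a gap of 12751 bases on chromosome 12. It was at 35.8 TPM in BM monocytes, 30.4 TPM in SC monocytes and 8.18 TPM in APCs. The log2 fold change was -0.15 (-0.27 to -0.04) in SC monocytes over BM monocytes and -1.68 (-1.86 to -1.51) in APCs over SC monocytes. The 2 neighbours thus differed in the first step and were both called lower in the second.

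The Mx genes encode GTPases that trap viral nucleocapsids, and the Mx1 allele of C57BL/6 mice is known to lack a functional protein. Mx1 was at 28.3 TPM in BM monocytes, 67.2 TPM in SC monocytes and 12.7 TPM in APCs, with log2 fold changes of 1.38 (1.24 to 1.52) and -1.73 (-1.90 to -1.57). Mx2 was at 3.35, 17.96 and 4.55 TPM in the same order, with 2.38 (2.06 to 2.70) and -1.49 (-1.77 to -1.21). Both were called higher in SC monocytes and lower in APCs. The effective length used for Mx1 was 1511 bases in BM monocytes, 1308 in SC monocytes and 2151 in APCs. Another set of transcripts was used to quantify the APCs, and its part in these lengths was not tested. With reads divided by effective length, the second step was -2.32 for Mx1 and -1.89 for Mx2.

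The membrane restriction factors had the widest range of log2 fold changes in the first step, from -2.12 to 4.45. Ifitm3, which blocks fusion of viruses in endosomes, was the most abundant of the 46 genes in each library, at 2166 TPM in BM monocytes, 1956 TPM in SC monocytes and 708 TPM in APCs. The log2 fold change was 0.14 (0.11 to 0.18) in SC monocytes over BM monocytes and -1.44 (-1.49 to -1.39) in APCs over SC monocytes. Ifitm2, at 1085, 761 and 525 TPM in the same order, was not called in either step, with -0.22 (-0.28 to -0.17) and -0.51 (-0.58 to -0.44). Ifitm1 was at 17.9 TPM in BM monocytes, 369 TPM in SC monocytes and 267 TPM in APCs. It was called higher in SC monocytes at 4.45 (4.18 to 4.74), and was not called in the second step, at -0.38 (-0.49 to -0.28). Ifitm6 ran the other way and was called lower in both steps. It was at 904 TPM in BM monocytes, 169.5 TPM in SC monocytes and 35.6 TPM in APCs, with -2.12 (-2.23 to -2.03) and -2.22 (-2.44 to -2.02). These 4 genes lie together on chromosome 7 between 140954837 and 141017924, and Ifitm3 and Ifitm6 are 4928 bases apart. Bst2 (tetherin), which holds budding virions at the cell surface, was at 74.7, 338 and 225 TPM, with 2.47 (2.34 to 2.60) and -0.56 (-0.65 to -0.48).

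In the PARP9 axis and among nuclear factors, 2 of 5 genes were called higher in SC monocytes and 0 were called lower in APCs. Phf11b was at 33.2 TPM in BM monocytes, 145 TPM in SC monocytes and 111 TPM in APCs, with log2 fold changes of 2.44 (2.29 to 2.59) and -0.39 (-0.49 to -0.29). Parp14, an ADP-ribosyltransferase, was at 30.6, 74.1 and 35.7 TPM in the same order, with 1.57 (1.51 to 1.63) and -1.03 (-1.09 to -0.97). Parp9 and Dtx3l, whose products form a complex of ADP-ribosyltransferase and ubiquitin ligase, were not called, at 0.89 (0.79 to 0.98) and 0.62 (0.55 to 0.68) in the first step. This pair overlaps by 682 bases on opposite strands, and whether the counting used strand is not given in the sources used here. Sp100, a component of PML nuclear bodies, was at 380.0, 222 and 155 TPM, with -0.44 (-0.49 to -0.39) and -0.50 (-0.57 to -0.44), and was not called.

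The Schlafen genes among the members and Samd9l, which restrict translation and growth, had log2 fold changes within 2-fold in the first step, and 0 of 4 were called there. Slfn4 and Slfn3, measured but not members, were called higher and lower in that step and are described in the last section. Slfn2, which is needed for quiescence of T cells and monocytes, was at 618 TPM in BM monocytes, 753 TPM in SC monocytes and 419 TPM in APCs, with log2 fold changes of 0.61 (0.57 to 0.64) and -0.87 (-0.91 to -0.83). Slfn1 was at 172, 150.2 and 69.1 TPM in the same order, and Slfn5 at 118, 124 and 59.1 TPM. Both were called lower in APCs than in SC monocytes, at -1.15 (-1.23 to -1.06) and -1.28 (-1.33 to -1.23). Samd9l was at 24.1, 22.8 and 16.5 TPM and was not called.

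Among the remaining 7 genes, Lgals3bp, a secreted binding partner of galectins, was highest in APCs. It was at 42.3 TPM in BM monocytes, 361 TPM in SC monocytes and 654 TPM in APCs, with log2 fold changes of 3.36 (3.28 to 3.44) and 0.78 (0.74 to 0.81). Epsti1 was the other member highest in APCs, at 94.6, 83.0 and 101 TPM in the same order, and was not called in any comparison. Ifi47, an immunity-related GTPase that also responds to interferon gamma, was at 71.4 TPM in BM monocytes, 312 TPM in SC monocytes and 92.5 TPM in APCs, with 2.42 (2.34 to 2.50) and -1.79 (-1.87 to -1.72). It was the one gene of the 7 called lower in APCs. Rtp4, a chaperone of G protein-coupled receptors, was at 17.8, 165 and 84.2 TPM, with 3.56 (3.37 to 3.77) and -1.01 (-1.12 to -0.90). Xaf1, a pro-apoptotic factor, was at 39.7, 143 and 80.3 TPM, with 2.03 (1.87 to 2.19) and -0.94 (-1.07 to -0.80). Ifi44 had 17 reads in BM monocytes, 326 in SC monocytes and 315 in APCs, which gave 0.30, 8.67 and 5.69 TPM and 4.69 (3.93 to 5.59) in the first step. Ifi35 was at 45.8, 74.9 and 52.1 TPM and was not called, at 1.025 (0.89 to 1.16) in the first step.

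The make-up of the 46 transcripts differed between the libraries. Their summed level was 6648 TPM in BM monocytes, 8759 TPM in SC monocytes and 4939 TPM in APCs. Membrane restriction factors made up 63.9% of it in BM monocytes, 41.0% in SC monocytes and 35.6% in APCs. The ISG15 system made up 0.693%, 6.72% and 4.41%, and the OAS family with Isg20 2.26%, 7.13% and 5.99%. The group of other genes, led by Lgals3bp in SC monocytes and APCs, made up 4.69%, 13.1% and 21.6%. Without the 4 Ifitm genes the sum was 2476, 5503 and 3404 TPM.

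**Figure D3:**
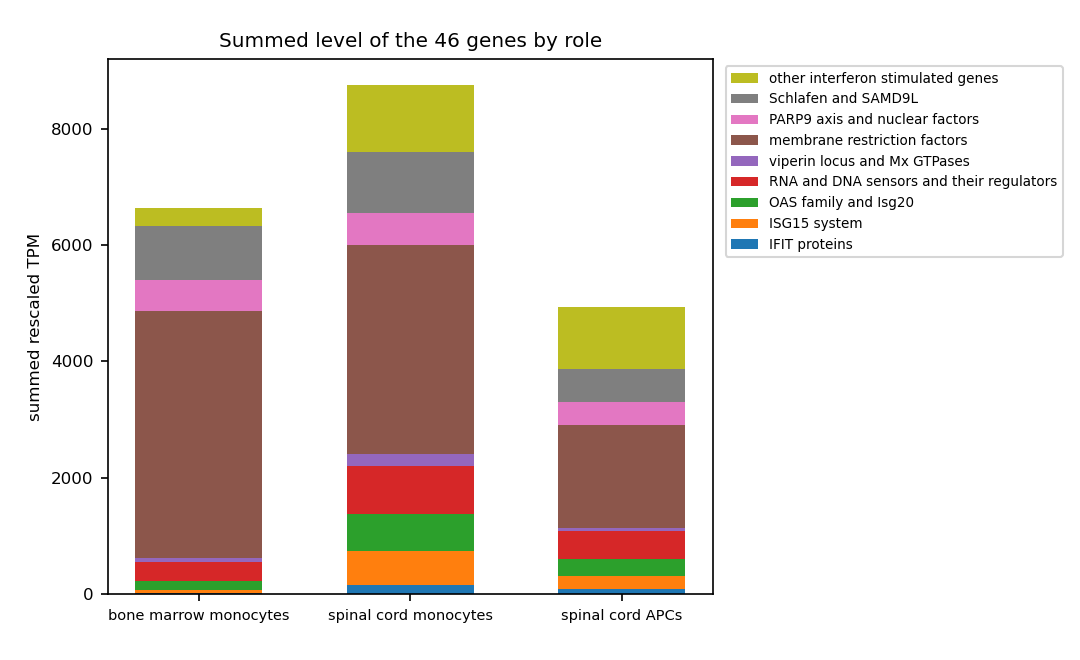
Summed rescaled TPM of the 46 genes in each library (vertical axis, from 0), divided by role. The bars reach 6648, 8759 and 4939 TPM, and the membrane restriction factors are the largest block in each bar.

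Between APCs and BM monocytes, 18 of the 46 genes were called higher and 3 lower (Cmpk2, Ifitm3 and Ifitm6). Of all 10190 genes tested, 14.0% were called higher and 11.8% lower. The median log2 fold change of the 46 was 0.78, beside -0.17 for all genes. With an assumed coefficient of variation of 0.2, 13 of these higher calls held, and 6 at 0.4 (Ifi44, Lgals3bp, Ifitm1, Rsad2, Oasl1 and Isg15). This comparison shares its libraries with both steps above and adds no measurement to them. All 4 IFIT genes were among the 18, with Ifit3 at 2.38 (2.16 to 2.62) and Ifit1 at 2.21 (1.95 to 2.48). Ifi44 was at 4.48 (3.73 to 5.38), Lgals3bp at 4.14 (4.06 to 4.22) and Ifitm1 at 4.06 (3.79 to 4.36). Rsad2 was at 3.55 (3.32 to 3.78) and Isg15 at 3.16 (2.94 to 3.40). At the other end, Ifitm6 was at -4.35 (-4.55 to -4.16), Cmpk2 at -1.83 (-2.002 to -1.67) and Ifitm3 at -1.299 (-1.35 to -1.25). All 18 had also been called higher in SC monocytes. The other 13 of those 31 were not called here (Mx1, Oas3, Dhx58, Oas1a, Ifih1, Parp14, Isg20, Ifi47, Trim25, Mx2, Ddx58, Usp18 and Xaf1). Their values ran from -0.36 (-0.54 to -0.18) for Mx1 to 1.09 (0.91 to 1.27) for Xaf1, with Oas1a at 0.44 (0.33 to 0.54). When reads were divided by effective length, Trim25 and Xaf1 were called higher at 1.26 (1.19 to 1.32) and 1.34 (1.16 to 1.52), and Herc6, one of the 18, was not, at 0.95 (0.79 to 1.11). That made 19 called higher and 3 lower, beside 14.3% and 12.7% of all genes, with Mx1 at -0.83.

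The APC values depend in part on whether effective length is taken into account. Dividing by it covers the length of a gene, not which reads the other set of transcripts assigned to that gene. Effective length differed by over 1.3 times between libraries in 6 of the 46 genes, namely Mx1, Mx2, Herc6, Ddx58, Trim25 and Ifi44. When reads were divided by effective length, 12 members were called lower in APCs than in SC monocytes in place of 16, which is 26.1% of them, while the share of all genes called lower was 3.29% in place of 1.7%. Dhx58 and Oas1g were then called at -1.17 and -1.16. Usp18, Oas3, Ifit2, Oas1a, Slfn5 and Slfn1 were not, at -1.12, -1.07, -1.04, -1.02, -0.99 and -1.04. From reads, these values were -1.20, -1.18, -1.18, -1.13, -1.28 and -1.15 in the same order. For Ddx58 the log2 fold change was -1.11 in place of -0.63, and for Trim25 -0.41 in place of -0.79. None of the 46 genes was called higher in APCs than in SC monocytes on either scale, beside 2.38% of all genes with effective length.

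**Figure D4:**
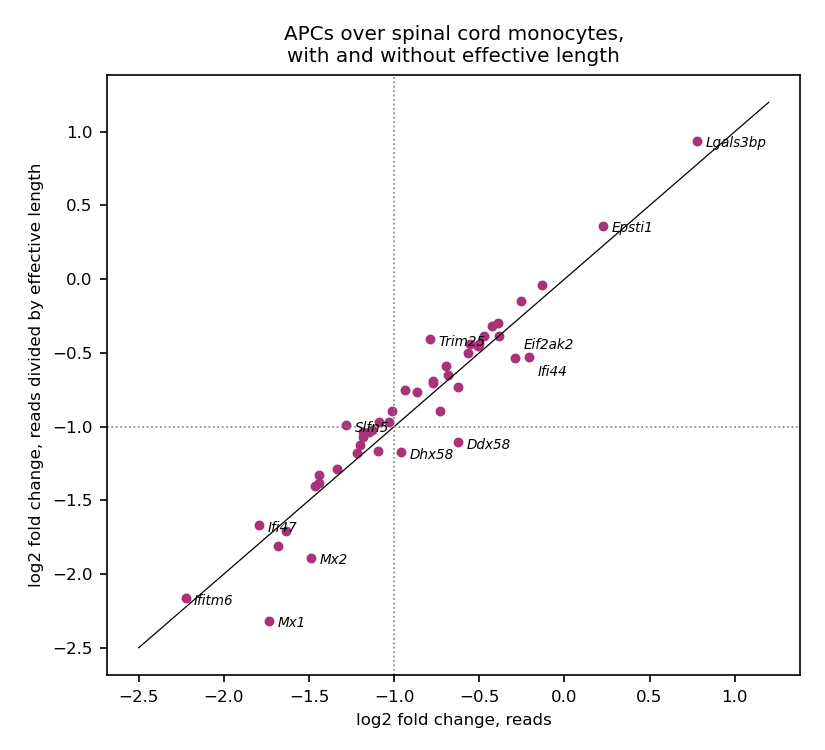
Log2 fold change in APCs over SC monocytes for each of the 46 genes, from reads (horizontal axis) and from reads divided by effective length (vertical axis). Of the points, 38 lie within 0.2 of the line of equal values, Mx1, Ddx58, Mx2, Ifi44, Eif2ak2 and Dhx58 lie further below it, Slfn5 and Trim25 lie further above it, and the dotted lines mark a 2-fold lower level.

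Of the interferon genes, those of type I named here were under the level threshold in each library, while Ifng was over it in the spinal cord libraries. Ifnb1, which encodes interferon beta, had 1, 20 and 6 reads in BM monocytes, SC monocytes and APCs, or 0.0947, 2.16 and 0.573 TPM. The log2 fold change of the first step was 4.10 (1.95 to 7.65), an interval as wide as these few reads allow. Ifna1, Ifna5 and Ifnab had 0 reads in each library, Ifna2 had 0, 1 and 0, and Ifna4 had 0, 1 and 1. A count of 0 allows up to 3 reads. The receptor genes Ifnar1 and Ifnar2 were not called, at 79.2, 95.3 and 76.4 TPM and 153, 149.97 and 175 TPM in the same order. Ifng, which encodes interferon gamma, had 0, 129 and 443 reads, or 0, 7.14 and 22.2 TPM. It was called higher in SC monocytes than in BM monocytes, at least 60.1-fold against the floor of 3 reads, and higher in APCs than in SC monocytes at 1.62 (1.29 to 1.961). Ifngr1, a chain of its receptor, was at 363, 129.7 and 129 TPM and was called lower in SC monocytes at -1.20 (-1.26 to -1.15).

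Among genes of signal transduction to ISGF3, Stat2, which encodes one of its subunits, was at 43.0 TPM in BM monocytes, 124 TPM in SC monocytes and 38.7 TPM in APCs. It was called higher in SC monocytes at 1.57 (1.49 to 1.66) and was not called in the second step, at -0.70 (-0.78 to -0.63). Its effective length was 2026 bases in SC monocytes and 4144 in APCs, and with reads divided by effective length it was called lower in the second step, at -1.60 (-1.68 to -1.53). Irf9, the DNA-binding subunit of ISGF3, was at 71.9, 67.0 and 47.1 TPM in BM monocytes, SC monocytes and APCs and was not called. Socs1 and Socs3, feedback inhibitors of JAK kinases, were called higher in SC monocytes at 5.78 (5.18 to 6.46) and 5.35 (5.26 to 5.44), and the phosphatase gene Ptpn2 at 1.34 (1.22 to 1.46). Of 14 measured genes of interferon induction, 4 (28.6%) were called higher in SC monocytes and 0 lower, against 13.8% and 10.7% of all genes. Irf7, the factor that amplifies interferon transcription, was at 48.8, 224 and 119.7 TPM, with 2.48 (2.39 to 2.57) and -0.84 (-0.91 to -0.78). The others were Irf1, Ikbke and Tlr3, at 3.01, 1.13 and 2.42. In APCs over SC monocytes 0 of the 14 were called, where 1.93% of all genes were called higher and 1.7% lower.

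The GTPases best known for induction by interferon gamma had a higher median log2 fold change in the first step than the 46 genes. Of 14 over the level threshold, of 15 measured, 13 (92.9%) were called higher in SC monocytes than in BM monocytes, against 13.8% of all genes. The median was 4.20 beside 1.77 for the 46 genes. The values overlapped, from 0.92 to 7.82 for the GTPases and from -2.12 to 4.99 for the 46. Gbp2 was the most abundant in SC monocytes, at 44.5 TPM in BM monocytes, 1081 TPM in SC monocytes and 585 TPM in APCs, with 4.93 (4.86 to 5.01). In APCs over SC monocytes 0 of the 14 were called, beside 1.93% of all genes called higher and 1.7% lower. With reads divided by effective length, Tgtp2 was called lower at -1.16. The median from reads was -0.76 beside -0.90 for the 46 genes. Their summed level was 252 TPM in BM monocytes, 2794 TPM in SC monocytes and 1617 TPM in APCs. No test of the difference between these lists was made.

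**Figure D5:**
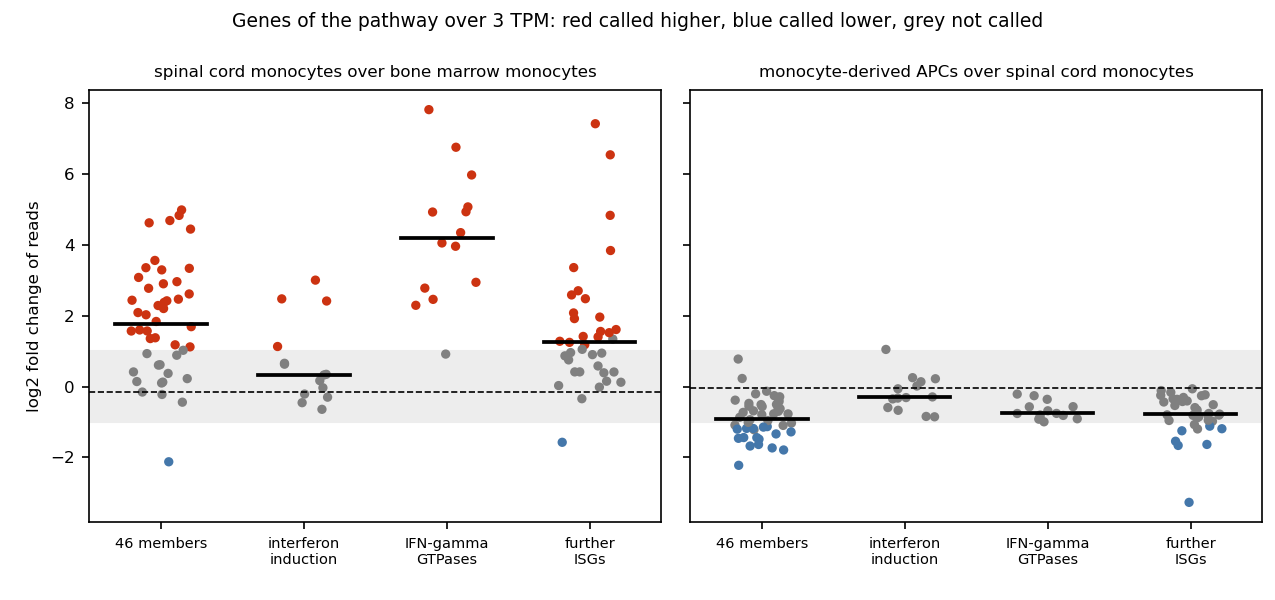
Log2 fold change of reads (vertical axis) of genes over 3 TPM in the 46 members and 3 lists of the pathway, SC monocytes over BM monocytes on the left and APCs over SC monocytes on the right. Thick bars are medians (1.77 and -0.90 for the members, 4.20 and -0.76 for the GTPases), the dashed line is the median of all genes tested, and the grey band spans changes within 2-fold.

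Markers of other cells differed between the libraries too, and their part in the results above was not tested. The 7 markers of T and NK cells summed to 0.450 TPM in BM monocytes, 33.8 TPM in SC monocytes and 50.2 TPM in APCs, with 0, 4 and 4 of them over 3 TPM. Trbc2 was the most abundant in both spinal cord libraries, Cd3e had 1, 138 and 285 reads, and Ncr1 had 0, 0 and 3. Of microglial markers, Tmem119, which is particular to microglia, was at 1.82, 26.0 and 66.4 TPM. The 7 neutrophil markers summed to 6966, 1176 and 1087 TPM, led by S100a8, which immature monocytes also express. Ly6g was at 2.57, 1.71 and 1.64 TPM. Of the 6 over the level threshold, 4 were called lower in the first step and Cxcr2 was called higher, at 2.15. In the second step 1 was called higher and 0 lower. The 6 markers of cycling progenitors summed to 527, 37.1 and 65.8 TPM, with 5, 4 and 4 over 3 TPM. They were led by Top2a in BM monocytes and by Cd34 in the others. In the first step 4 were called lower, and Cd34 was called higher, at 2.32. In the second step 1 was called higher and 1 lower.

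Plasmacytoid dendritic cells are the classical producers of type I interferon. Their 7 markers summed to 154, 428 and 348 TPM, with 3, 4 and 4 over 3 TPM. Bst2, the most abundant in each library, is itself one of the 46 genes, and Siglech, at 0.115, 15.2 and 44.4 TPM, is shared with microglia. Klk1 had 0 reads in all 3 libraries and Ccr9 was at 0.0913, 0.441 and 0.638 TPM. Apart from Bst2 and Siglech, the markers over 3 TPM were among Tcf4, Il3ra and Spib. The 5 endothelial markers summed to 78.2, 107 and 53.6 TPM, with 2, 3 and 3 over 3 TPM. They were led by Ly6c1, and Cldn5 had 0 reads in BM monocytes. The 6 markers of astrocytes and oligodendrocytes summed to 75.4, 53.9 and 49.8 TPM, led by Mbp, with 1, 4 and 4 over 3 TPM, and Aqp4 and Mog had 0 reads in BM monocytes. The 4 B cell markers summed to 0.159, 0.976 and 0.523 TPM, and none was over 3 TPM. The 8 markers of antigen-presenting cells, by which the APCs are described, summed to 186, 5502 and 12932 TPM, led by H2-Ab1, with 5, 8 and 8 over 3 TPM.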

How the data were processed

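Bulk RNA-Seq of 3 pooled, sorted libraries was analysed. The authors estimated expression with Salmon 0.14.1 (submitters' processing notes) on GENCODE vM22 transcripts of mm10, pooling the transcripts of each gene. They deposited TPM, which the authors normalized for effective length and depth, estimated counts, deposited without normalization and holding fractions of reads, and effective lengths. The monocyte libraries list 54432 genes and the APC library 22242, which shows that another set of transcripts was used for the APCs. Of these, 22238 genes were in all 3 libraries and were kept, with 84.9%, 85.3% and 99.99% of the deposited TPM in BM monocytes, SC monocytes and APCs. TPM was rescaled over them. Estimated counts were rounded to whole reads. GENCODE M21 (GRCm38) gave symbols and coordinates, and it lists 99.0% of the common identifiers with an equal version.

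The study's definition of GFold was computed anew over all common genes. Reads plus 1 set a gamma posterior for each library, and the log2 ratio of these was taken after division by size factors from medians of ratios (1.21 in BM monocytes, 0.863 in SC monocytes and 0.962 in APCs). The interval ran from percentile 1 to 99. The threshold of 3 TPM takes the log2 threshold in the study's methods to hold for TPM with 1 added, which those methods do not state. The calculation was tested on simulated data with counting error alone and planted changes well past 2-fold. That test does not cover spread between libraries or changes near 2-fold. TPM was given 95% Wilson intervals, and a count of 0 a floor of 3 reads. The 46 members and all lists were chosen with earlier results of these data known, and are not independent support for any pattern. Any of the 46 genes could be named. Of a pathway list, the 3 most abundant genes, the called genes, or all genes of a list of up to 8 could be named, and Irf9, Oas1b, Oas1c, Tgtp2, Uba7 and Nlrc5 were named after their values were seen. Markers could all be named. Some genes, and the summaries of lists that hold them, are not reported here. Comparison of protein sequences between members was not done. Alternatives changed the TPM threshold, the scaling (total reads, TMM), the gene length, the spread between libraries, the percentiles, the reads added, the call, the gene set and the scale. Scripts ran in Python 3.11.15 (scipy 1.17.1, numpy 2.4.6, pandas 2.3.3, matplotlib 3.10.9), and TMM factors alone were taken from edgeR 4.0.16 in R 4.3.3.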

Additional observations from a re-analysis of the deposited data

How the results depend on the processing

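No paired analysis was possible because each population was 1 library, and for the same reason no replicate could be left out. No called member changed direction under any alternative. An assumed coefficient of variation of 0.4 left 12 members called higher and 0 lower in SC monocytes over BM monocytes (31 and 1 as reported), and 6 higher and 1 lower in APCs over BM monocytes (18 and 3). In APCs over SC monocytes, 1 member was called lower at 0.2 and 0 at 0.4 (16 as reported), and in APCs over BM monocytes 1 was called lower at 0.2. Total reads as scaling moved the median of all genes by -0.18 in the first step and -0.14 in APCs over BM monocytes. In the latter, 5 members were then called lower, beside 1448 of all 10190 genes. The medians of the members were 1.58 and 0.64. With size factors from genes active in every library, chosen after seeing the data, all genes moved by 0.15 and 0.18, and the medians were 1.91 and 0.96. Without Ifit3, Ifit3b, Oas1a and Oas1g the first median was 1.65. On log2(TPM + 1) the medians were 1.40, -0.73 and 0.56 in the 3 comparisons, and on log2(TPM + 0.1) 1.5, -0.75 and 0.63. TPM as deposited summed to 5647 in BM monocytes and 7471 in SC monocytes, and the sums without the Ifitm genes were 2476, 5503 and 3404. BM monocytes were the highest library for 4 members with reads over size factors and no length correction, which changes scaling and length together (7 as reported), and APCs for 4 with TPM as deposited (2 as reported).

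The background moved as well. Over all genes, an assumed coefficient of variation of 0.4 left 630 genes called higher and 225 lower in the first step (1386 and 1073 as reported), 43 and 14 in the second (188 and 165) and 725 and 231 in APCs over BM monocytes (1426 and 1199). At 0.2 these were 918 and 454, 85 and 35, and 979 and 503. Without the level threshold, 2622, 385 and 2870 genes were called higher in the 3 comparisons, and 292 lower in the second. A plain 2-fold change called 326 and 302 in the second, and reads divided by effective length 232 and 320. The causes were not tested. Depth limits Ifit3b, Ifi44 and the type I interferon genes most, with 30, 17 and at most 20 reads in the library or libraries concerned.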

Other observations

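Other genes known to respond to interferon, outside the 46, were listed as well, with earlier results of these data known. Of 39 measured, 37 were over the level threshold in the first step. Of these, 19 (51.4%) were called higher in SC monocytes than in BM monocytes, against 13.8% of all genes. Slfn3 alone was called lower, against 10.7% of all genes. Their median log2 fold change was 1.25, beside -0.15 for all genes tested. Between APCs and SC monocytes 0 were called higher and 7 lower (Cxcl10, Ifi27l2a, Ifi203, Ifi209, Ifi213, Ms4a4c and Slfn4). The 7 are 18.9% of the list, and 1.93% of all genes were called higher and 1.7% lower. The median was -0.78 beside -0.04. With reads divided by effective length, Ifi209 was not called lower and Uba7 and Nlrc5 were, at -1.17 and -1.14. Cxcl10, a chemokine for activated T cells, was at 10.1 TPM in BM monocytes, 1423 TPM in SC monocytes and 444 TPM in APCs, with log2 fold changes of 7.43 (7.18 to 7.68) and -1.66 (-1.71 to -1.62). Slfn4, a Schlafen gene of myeloid cells, was at 5.91 TPM in BM monocytes, 125 TPM in SC monocytes and 13.3 TPM in APCs, with 4.84 (4.67 to 5.01) and -3.27 (-3.38 to -3.16), the lowest value of the list in the second step. Ifi205, of the family of DNA-binding p200 proteins, was at 5.94, 449.6 and 267 TPM in BM monocytes, SC monocytes and APCs, with 6.55 (6.31 to 6.80) and -0.88 (-0.93 to -0.83). Ms4a4c was at 1066, 993 and 364 TPM in the same order, with 0.15 (0.11 to 0.20) and -1.63 (-1.70 to -1.57). Ly6e, the most abundant gene of the list in each library, was not called in either step, at 3239.8, 3469 and 2889 TPM. Slfn3 was at 26.3, 6.94 and 5.404 TPM, with -1.57 (-1.83 to -1.33) in the first step.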
